A study of Mus musculus with 26 samples.

Results

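The flavin-containing monooxygenases of mouse liver are described here across 26 mRNA sequencing libraries. The 4 genes Fmo1, Fmo2, Fmo4 and Fmo5 were taken by symbol, as the rows of the deposited count table that map to these names. They are 4 of 47643 gene rows, and they were chosen with earlier results of these data known. Fmo5 and Fmo1 stood at the highest levels per kilobase in all 26 libraries. In livers lacking both Fxr and Shp, Fmo1 and Fmo2 rose and Fmo5 fell. At 48 h after partial hepatectomy Fmo1, Fmo2 and Fmo4 fell, in hepatocytes of mice on a high fat diet Fmo1 and Fmo4 rose, and on a cholic acid diet Fmo5 rose. Some of these changes depended on single libraries. With 1 library left out, Fmo4 after hepatectomy and Fmo5 on cholic acid each passed the threshold in 1 of 6 fits. Fmo1 after hepatectomy passed in 4 of 6. The high fat diet groups held 2 libraries each. There Fmo4 stood close to the threshold (edgeR adjusted p = 0.0454), and its call, like that of Fmo1, depended on single libraries.

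Flavin-containing monooxygenases are membrane enzymes of the endoplasmic reticulum that hold FAD, take electrons directly from NADPH and add an oxygen atom to the nitrogen or sulfur of amines, sulfides and related compounds. Unlike cytochrome P450 enzymes they need no separate reductase. Fmo1 also converts hypotaurine to taurine, the amino acid that mouse liver joins to bile acids. Fmo5 is known less for amines than for inserting oxygen beside carbonyl groups, Fmo2 is best known from the lung, and the substrates of Fmo4 are the least known.

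The study's title concerns the induction of drug metabolism when bile flow is impaired, and the libraries form 5 experiments, each with its own control. The first compared whole livers of wild-type C57BL/6J mice of 8 weeks given corn oil (n = 2) or TCPOBOP (n = 2), a synthetic activator of the receptor CAR. The sample titles give 36 h after the TCPOBOP injection and the source names give 6 h. The second compared whole livers of Fxr-/- Shp-/- (n = 3) and wild-type (n = 3) C57BL/6J mice of 12 weeks. Fxr is the bile acid receptor (gene Nr1h4) and Shp (gene Nr0b2) is a repressor that it induces. The labels restrict neither loss to a cell type. The third compared whole livers of C3H/HeN mice of 8 to 10 weeks at 48 h after partial hepatectomy (n = 3) with sham livers at 0 h (n = 3), with no genotype in the labels. The mice of these 3 experiments fed freely. The fourth compared isolated hepatocytes of wild-type C57BL/6J mice of 16 weeks after a 10 h fast, on a 60% high fat diet (n = 2) or chow (n = 2). The fifth compared whole livers of C57BL/6J mice of 10 to 12 weeks after a fast of 8 to 10 h, on a cholic acid diet (n = 3) or chow (n = 3). Both of these last groups carried the fl/fl Fxr and fl/fl Shp alleles, and their labels name no Cre. Nothing in the labels says that the libraries of a group came from separate animals, so p-values measure the spread between these libraries only. In whole liver, fewer cells of a type and less RNA per cell cannot be told apart.

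Counts assigned to genes ranged from 13949059 to 70367874 per library, and 3 counts, the smallest level taken as measurable, equalled 0.0426 to 0.215 CPM (read counts scaled to library size). All 26 libraries had at most 8 counts of Xist and at least 779 counts of the Y-linked gene Ddx3y. Nr1h4 was at 114 to 153 CPM in wild-type livers and 52.9 to 61.5 CPM in the double knockout, and Nr0b2 at 13.3 to 26.8 and 0.563 to 1.59 CPM. Cyp2b10, the standard target of CAR, reached 3420 and 2976 CPM with TCPOBOP. Among the controls it was at 10 CPM in corn oil 2, but the library labelled corn oil 1 held 3672 CPM. That library goes against its label, and no direction is drawn from the TCPOBOP experiment. Hepatocyte markers such as Alb and Cps1 were present in every group.

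Fmo1, Fmo2 and Fmo4 lie close together on the minus strand of chromosome 1 (GRCm38), and Fmo5 lies alone on the plus strand of chromosome 3. Fmo4 spans chr1:162793188-162813972, Fmo1 chr1:162829561-162866610 and Fmo2 chr1:162874317-162898726, while Fmo5 spans chr3:97628804-97655282. All are protein-coding genes, with exons that cover 6304 bases in Fmo1, 5609 in Fmo2, 3707 in Fmo4 and 5675 in Fmo5. Their coding sequences are 57.8% to 61.4% identical in pairs, and the longest stretch that transcripts of any pair share without a mismatch is 24 bases. A stretch of 90 coding bases near the start of the coding sequence, in the part that encodes the FAD-binding fold, is shown for Fmo2, Fmo4 and Fmo5. Its start was set at Fmo2 coding position 25, and Fmo1 is not shown. Within it a read has to be told apart by the bases that differ. Capitals mark the 56 bases that are identical in these 3 genes, read 5′ to 3′ from GENCODE's GRCm38 transcripts, at coding positions 25 to 114 in Fmo2 and Fmo4 and 28 to 117 in Fmo5.
Fmo2: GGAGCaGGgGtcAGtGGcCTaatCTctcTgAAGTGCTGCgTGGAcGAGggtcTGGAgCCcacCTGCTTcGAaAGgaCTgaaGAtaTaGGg
Fmo4: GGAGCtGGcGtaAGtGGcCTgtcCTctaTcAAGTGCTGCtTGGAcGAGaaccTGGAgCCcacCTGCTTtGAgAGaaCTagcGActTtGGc
Fmo5: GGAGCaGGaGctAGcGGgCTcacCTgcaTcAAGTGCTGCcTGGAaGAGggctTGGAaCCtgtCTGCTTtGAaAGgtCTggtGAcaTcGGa
No other gene of that annotation overlaps Fmo1, Fmo2, Fmo4 or Fmo5.

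Levels can be compared between members only per length, so CPM was divided by the kilobases of exon. On this scale Fmo5 ranked first and Fmo1 second in all 26 libraries. In wild-type livers Fmo5 was at 159.8 ± 9.10 CPM per kilobase (SD, n = 3), Fmo1 at 27.0 ± 2.72, Fmo2 at 3.99 ± 0.496 and Fmo4 at 2.29 ± 0.0731. The order of the other two genes differed between experiments: Fmo2 was above Fmo4 in all wild-type and double knockout libraries, as in all 3 cholic acid libraries, and Fmo4 was above Fmo2 in all 3 hepatectomy, both chow hepatocyte and both corn oil libraries. As a share of the summed level of the 4 genes, Fmo5 took 81.9% to 84.2% in wild-type livers and 59.4% to 61.7% in double knockout livers. Fmo1 took 12.8% to 14.7% and 24.1% to 32.4%, and Fmo2 1.84% to 2.19% and 6.43% to 12.6%, so none of these ranges overlapped between the genotypes. In the remaining 8 groups the share of Fmo5 lay between 78.4% and 93.3%.

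**Figure D1:**
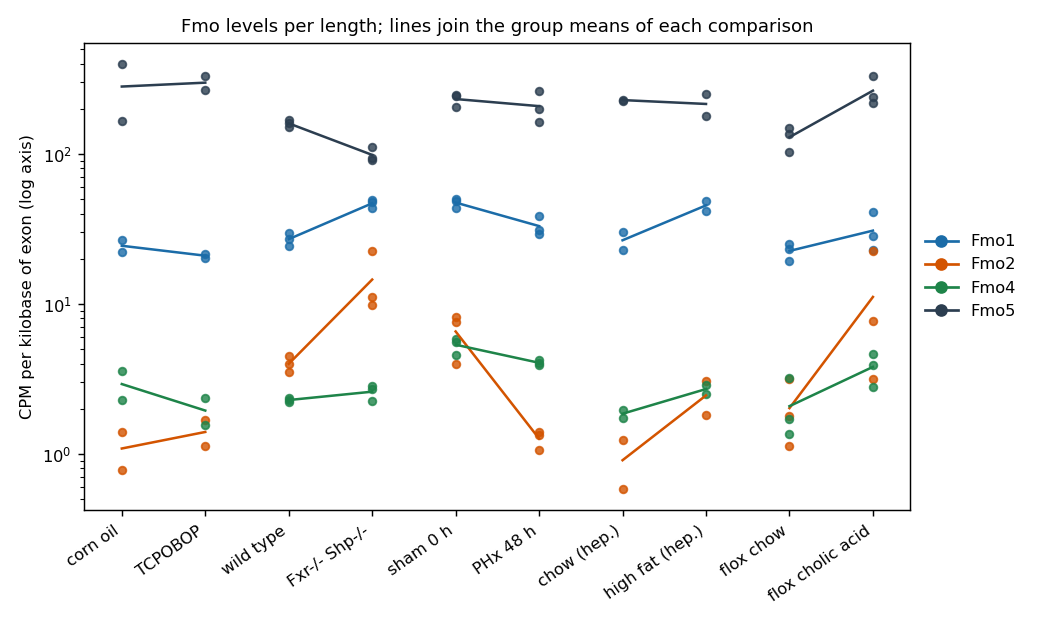
CPM per kilobase of exon (log axis) of the 4 Fmo genes in each library (points), by group, with lines that join the group means of each comparison. Fmo5 is the highest and Fmo1 the second in all groups, while Fmo2 and Fmo4 change places between groups.

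Each experiment was tested over all genes with edgeR's quasi-likelihood test, and a gene was called at a Benjamini-Hochberg adjusted p under 0.05. The share of all tested genes called stands beside each count of members. In the double knockout 3 of 4 members were called, 2 higher and 1 lower, where 40.4% of all genes were called (21% higher and 19.4% lower). After hepatectomy 3 of 4 were called, all 3 lower, where 30.7% of genes were called (16.4% higher and 14.3% lower). In high fat diet hepatocytes 2 of 4 were called, both higher, against 24% of genes (12.9% higher and 11.1% lower). On cholic acid 1 of 4 was called, higher, against 4.77% of genes (2.27% higher and 2.5% lower). In the TCPOBOP experiment 0 of 4 were called, as were 0% of genes in both directions. There edgeR gave 751 genes at an unadjusted p under 0.05, and DESeq2 called 109. All 4 members passed the filter on low counts in each of the 5 experiments. With 4 members, a count near these shares is not a result about the family.

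**Figure D2:**
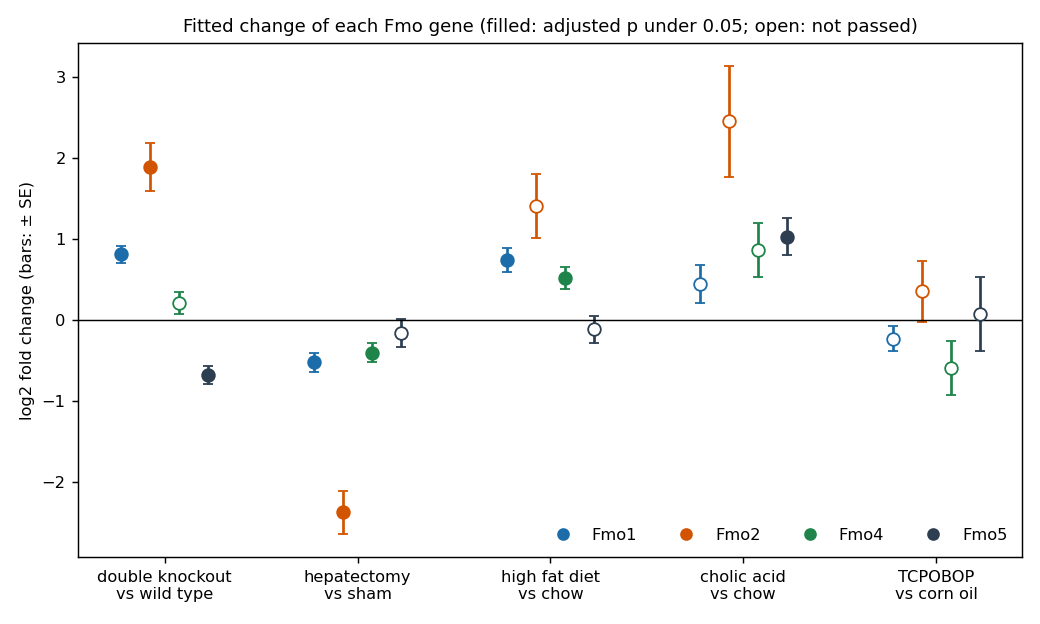
Fitted log2 fold change (points) with its standard error (bars) of each Fmo gene in the 5 comparisons; filled points passed an adjusted p of 0.05 in edgeR. All 3 filled points of the hepatectomy comparison lie below 0, and the knockout comparison holds 2 above and 1 below.

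Fmo5, the most abundant member, was the only one that fell in the double knockout. It stood at 956.6, 910.5 and 853.5 CPM in the wild-type livers and at 528.8, 516.6 and 630.7 CPM in the double knockout. All 3 knockout libraries lay below all 3 wild-type libraries, and the log2 change was -0.68 ± 0.115 (SE, edgeR adjusted p = 0.00205). On the cholic acid diet Fmo5 moved the other way. It was at 773.6, 845.9 and 580.2 CPM in the floxed chow livers and at 1248, 1887 and 1358 CPM in the cholic acid livers. The groups did not overlap, and the log2 change was 1.03 ± 0.23 (edgeR adjusted p = 0.0443). That call held in 1 of 6 fits that left out 1 library, the one without chow library 3. In the other 5 the log2 change stayed between 0.83 and 1.15, with an adjusted p between 0.0813 and 0.129.

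In the other experiments Fmo5 was not called. Sham livers held 1169, 1385 and 1396 CPM and hepatectomy livers 1138, 919.4 and 1486 CPM. These groups overlapped (log2 change -0.16 ± 0.172, edgeR adjusted p = 0.529). Chow hepatocytes held 1307 and 1285 CPM and high fat diet hepatocytes 1018 and 1424 CPM, which lay on both sides of the chow values (-0.11 ± 0.166, edgeR adjusted p = 0.648). The library labelled corn oil 1 held 2257 CPM, corn oil 2 held 933.6 CPM, and the TCPOBOP libraries held 1865 and 1522 CPM, between the 2 corn oil values (0.07 ± 0.46, edgeR adjusted p = 0.992). Without the library labelled corn oil 1, Fmo5 was 0.85 ± 0.186 higher with TCPOBOP (edgeR adjusted p = 0.0259), and without corn oil 2 it was at -0.42 ± 0.185 (adjusted p = 0.344). Each of these fits rests on 1 control library that is assumed to vary like the TCPOBOP pair. Over the 10 groups, mean Fmo5 was lowest in the double knockout (558.7 ± 62.7 CPM, SD, n = 3) and next lowest in floxed chow livers (733.2 ± 137 CPM). Neighbours in the order of means overlapped except wild-type and floxed chow livers. Across experiments the groups also differ in strain, tissue, age and feeding. In this order and in those of the other members, these differences cannot be told apart from treatment.

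**Figure D3:**
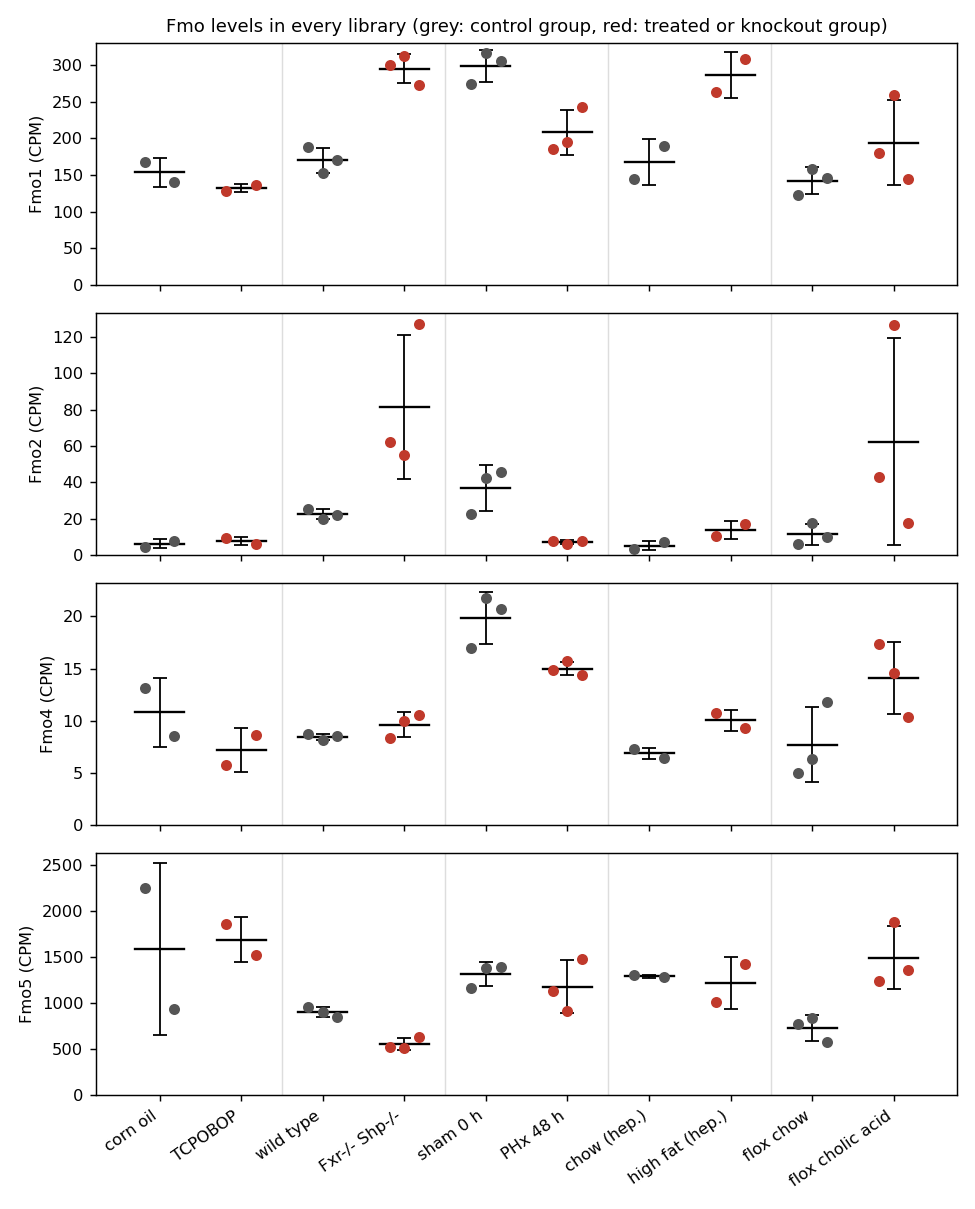
CPM of Fmo1, Fmo2, Fmo4 and Fmo5 (linear axes from 0) in each library (points) of the 10 groups, with the group mean (horizontal bar) and SD (error bar); grey groups are controls and red groups treated or knockout, and vertical lines part the 5 experiments. Mean Fmo1 is 286.0 to 298.7 CPM in the double knockout, sham and high fat diet groups, and the 2 corn oil libraries lie far apart for Fmo5 at 2257 and 933.6 CPM.

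Fmo1, the hypotaurine-oxidising member, rose in the double knockout and in high fat diet hepatocytes and fell after hepatectomy. Wild-type livers held 187.6, 153.2 and 170.2 CPM and double knockout livers 299.7, 312.7 and 273.4 CPM. All knockout libraries lay above all wild-type ones, with a log2 change of 0.81 ± 0.105 (edgeR adjusted p = 0.000492). Sham livers stood at 274.2, 316.7 and 305.2 CPM, as high as the double knockout, and hepatectomy livers at 185.7, 195.6 and 243.1 CPM. The hepatectomy libraries were all below the sham libraries (-0.52 ± 0.119, edgeR adjusted p = 0.0132). This call was lost without sham library 2 (adjusted p = 0.0594) or sham library 3 (adjusted p = 0.0563).

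Chow hepatocytes held 145.0 and 189.8 CPM of Fmo1 and high fat diet hepatocytes 263.8 and 308.2 CPM. Both high fat diet libraries were above both chow libraries, by 0.75 ± 0.15 (edgeR adjusted p = 0.0221), and the call was lost without high fat diet library 2 (adjusted p = 0.0639). On cholic acid the 3 libraries held 179.5, 258.6 and 144.5 CPM, against 122.1, 158.3 and 146.0 CPM on chow. The groups overlapped through cholic acid library 3 (0.45 ± 0.233, edgeR adjusted p = 0.295). With TCPOBOP Fmo1 was at 128.2 and 136.0 CPM, below 167.9 and 139.9 CPM with corn oil but not called (-0.23 ± 0.155, edgeR adjusted p = 0.931). In the order of Fmo1 means the sham, double knockout and high fat diet groups came first, at 286.0 to 298.7 CPM. The lowest of them did not overlap the next group, hepatectomy. All later neighbours overlapped.

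Fmo2, the member best known from the lung, fell after hepatectomy and rose in the double knockout. It stood at 22.34, 42.33 and 45.57 CPM in sham livers and at 7.799, 5.968 and 7.514 CPM after hepatectomy. The groups lay far apart, and the log2 change was -2.37 ± 0.268 (edgeR adjusted p = 0.000491). In the double knockout Fmo2 was at 62.09, 55.20 and 127.1 CPM, against 25.23, 19.68 and 22.17 CPM in wild type. All knockout libraries were above all wild-type ones, with library 3 the highest, and the log2 change was 1.89 ± 0.296 (edgeR adjusted p = 0.00137).

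The 3 cholic acid livers differed widely in Fmo2, at 43.16, 126.4 and 17.68 CPM, against 6.295, 17.63 and 10.07 CPM on chow. The lowest cholic acid library and the highest chow library were nearly level, and the log2 change of 2.45 ± 0.682 was not called (edgeR adjusted p = 0.0795). A block on the replicate number treats same-numbered libraries as pairs, which the labels do not state. With this block the log2 change was 2.168 ± 0.425 and passed (edgeR adjusted p = 0.0483), where 3.82% of genes were called. Without cholic acid library 2 it was 1.42 ± 0.49 (edgeR adjusted p = 0.187). High fat diet hepatocytes held 10.26 and 17.28 CPM and chow hepatocytes 3.271 and 6.918 CPM, with no overlap, but the change of 1.404 ± 0.395 missed the threshold (edgeR adjusted p = 0.0513). With TCPOBOP Fmo2 was at 9.401 and 6.316 CPM and with corn oil at 4.354 and 7.835 CPM, and these overlapped (0.36 ± 0.373, edgeR adjusted p = 0.949). In the order of Fmo2 means the double knockout (81.5 ± 39.7 CPM, SD, n = 3), cholic acid (62.4 ± 56.9), sham (36.8 ± 12.6) and wild-type (22.4 ± 2.78) livers came first. Neighbours in that order overlapped, except wild-type livers and the next group, high fat diet hepatocytes (13.8 ± 4.97 CPM, n = 2).

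Fmo4 lay between 5.036 and 21.74 CPM in all 26 libraries. It fell after hepatectomy, from 17.02, 21.74 and 20.70 CPM in sham livers to 14.91, 15.70 and 14.43 CPM. The groups did not overlap, and the log2 change was -0.40 ± 0.117 (edgeR adjusted p = 0.0337). The call held only without sham library 1, and the other 5 fits that left out 1 library gave an adjusted p between 0.0571 and 0.129. In high fat diet hepatocytes Fmo4 was at 10.72 and 9.353 CPM, above 7.277 and 6.468 CPM on chow (0.52 ± 0.139, edgeR adjusted p = 0.0454). This call was lost without chow library 2 (adjusted p = 0.121), high fat diet library 1 (0.207) or high fat diet library 2 (0.0771).

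Fmo4 did not differ detectably between wild-type livers (8.721, 8.185 and 8.526 CPM) and double knockout livers (8.313, 10.02 and 10.59 CPM), which overlapped (0.21 ± 0.135, edgeR adjusted p = 0.254). On cholic acid it was at 17.32, 14.61 and 10.39 CPM and on chow at 5.036, 6.306 and 11.81 CPM, where chow library 3 lay among the cholic acid values (0.87 ± 0.335, edgeR adjusted p = 0.172). Without chow library 3 the change was 1.31 ± 0.256 and passed (edgeR adjusted p = 0.021). Corn oil libraries held 13.17 and 8.502 CPM and TCPOBOP libraries 5.745 and 8.685 CPM, which overlapped (-0.59 ± 0.334, edgeR adjusted p = 0.899). Sham livers had the highest mean, 19.8 ± 2.48 CPM (SD, n = 3), and were the only group that did not overlap the next in the order of Fmo4 means.

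Whether the members responded differently in different experiments was tested in fits over 2 experiments that share no library. The knockout effect minus the cholic acid effect was called for 1 of 4 members, lower, where 13.9% of genes were called (7.18% higher and 6.74% lower). That member was Fmo5, at -1.71 ± 0.262 (edgeR adjusted p = 0.00129), and it was called in all 12 fits that left out 1 library. The hepatectomy effect minus the cholic acid effect was called lower for all 4 members, where 13% of genes were called (8.01% higher and 5.01% lower). It was -4.82 ± 0.83 for Fmo2 (edgeR adjusted p = 0.00333). Without cholic acid library 2 it was -3.79 and was still called. For Fmo1 the difference was -0.96 ± 0.277 (edgeR adjusted p = 0.038), for Fmo4 -1.26 ± 0.376 (edgeR adjusted p = 0.0445) and for Fmo5 -1.18 ± 0.301 (edgeR adjusted p = 0.0229). Leaving out 1 library ended the call in 8 of 12 fits for Fmo1, in 10 of 12 for Fmo4 and in 3 of 12 for Fmo5, and with the replicate block the adjusted p for Fmo4 was 0.0978. The knockout effect minus the high fat diet effect was called for 0 of 4 members, where 16.1% of genes were called (7.98% higher and 8.11% lower). Its value for Fmo5 was -0.56 ± 0.208 (edgeR adjusted p = 0.0946, unadjusted p = 0.0214, DESeq2 adjusted p = 0.047), and it was the only member with an unadjusted p under 0.05.

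Genes of the supply of NADPH and FAD, both needed by every member, form a list of 11 genes. This list and those that follow were not tested against the shares of all genes called. These shares were 40.4% in the double knockout (21% higher and 19.4% lower) and 30.7% after hepatectomy (16.4% higher and 14.3% lower). They were 24% in high fat diet hepatocytes (12.9% higher and 11.1% lower) and 4.77% with cholic acid (2.27% higher and 2.5% lower). A count near its share is not a result about the list. Of the 10 tested, 5 rose and 1 fell in the double knockout, with a median log2 change of 0.26 (all genes -0.01). Pgd, an NADPH-making enzyme of the pentose phosphate pathway, rose by 1.68 ± 0.12, G6pdx, its first enzyme, by 0.87 ± 0.26 and the NAD kinase Nadk by 0.69 ± 0.107. After hepatectomy 5 of 11 fell and 0 rose (median -0.42, all genes 0.01), led by malic enzyme Me1 (-1.58 ± 0.224), the FAD synthase Flad1 (-0.86 ± 0.102) and Nadk (-0.74 ± 0.0862). In high fat diet hepatocytes 2 of 10 fell, Idh1 (-0.36 ± 0.0881) and Flad1 (-0.32 ± 0.0779), and on cholic acid 0 of 10 were called. Of 4 P450 reductase and cytochrome b5 genes, whose products the Fmo enzymes do not need, 3 rose in the double knockout (Cyb5a, Cyb5b and Cyb5r3). Cyb5r3, the cytochrome b5 reductase, was at 1.25 ± 0.0962, and the P450 reductase gene Por was not called. After hepatectomy 2 fell, the P450 reductase Por (-1.09 ± 0.249) and Cyb5r3 (-0.72 ± 0.097). On cholic acid 1 fell, Cyb5r3 (-0.99 ± 0.181). With the replicate block Por also passed there, as higher (1.085 ± 0.205, edgeR adjusted p = 0.0447), and in high fat diet hepatocytes 0 of 4 were called.

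Taurine genes, the pathway that holds Fmo1, gave 1 rise and 1 fall among 6 tested in the double knockout. Csad, which makes hypotaurine, rose by 0.84 ± 0.148, from 229.7 to 344.5 CPM in wild type to 489.1 to 565.7 CPM, and Baat, which joins taurine to bile acids, was at -0.70 ± 0.117. After hepatectomy 4 of 6 fell and 1 rose (median -0.52, all genes 0.01). Csad was at -1.498 ± 0.181, Cdo1, which starts cysteine's route to hypotaurine, at -0.91 ± 0.114 and the bile acid ligase Slc27a5 at -0.63 ± 0.112. In high fat diet hepatocytes Csad (-2.23 ± 0.109) and Cdo1 (-0.65 ± 0.132) fell while Fmo1 rose. On cholic acid 1 of 6 was called, the taurine transporter Slc6a6, which rose by 1.90 ± 0.164, from 50.2 to 60.7 CPM on chow to 189.7 to 232.3 CPM.

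Of 12 other enzymes of amine and sulfur compound metabolism, 2 rose and 4 fell in the double knockout. Monoamine oxidase Maoa rose by 1.19 ± 0.132, while aldehyde oxidase Aox3 (-1.40 ± 0.166) and the sarcosine-oxidising enzyme Pipox (-0.69 ± 0.0859) fell. After hepatectomy 5 fell and 0 rose, with Maob at -0.53 ± 0.094. In the double knockout the count called in either direction is near the share of all genes, 40.4%. After hepatectomy all 5 called genes fell, where 14.3% of all genes were called lower and 30.7% in either direction. This difference was not tested. In high fat diet hepatocytes 5 rose and 1 fell, with the sulfide-oxidising enzyme Sqor at 0.69 ± 0.0977, Maob at 0.69 ± 0.0812 and Aox3 at -0.81 ± 0.141. On cholic acid 2 fell, the sulfur transferases Mpst (-1.53 ± 0.138) and Tst (-1.24 ± 0.174). In the TCPOBOP experiment none of the genes of these 4 lists was called by edgeR, as for all genes.

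Genes known to be higher in female or in male mouse liver, among them many enzymes of drug and steroid metabolism, were read beside the members. Of the 13 female-enriched genes tested, 12 rose in the double knockout and 0 fell. Of these 12, 8 passed the filter on low counts through the knockout libraries alone (not every wild-type library reached its minimum), so they could enter only as higher, and the count is a description. All 14 male-enriched genes fell, of which 6 passed through the wild-type libraries alone. The sulfotransferase Sult2a1 went from at most 0.235 CPM to 1036 to 1365 CPM, Cyp2b9 from at most 0.181 to 296.0 to 332.2 CPM, and the urinary protein gene Mup7 from 4533 to 5932 CPM to at most 3.90 CPM. Sult2a1 and Cyp2b9 are among those 8 genes and Mup7 among those 6. Mup7, Sult2a1 and Cyp2b9 have close copies, so reads may be shared within their families. In high fat diet hepatocytes 4 of 7 female-enriched genes rose and 1 fell, and all 14 male-enriched genes fell. Cyp2b13, which rose, passed through the high fat diet libraries alone, and Cyp2c69 and Moxd1, which fell, through the chow libraries alone. On cholic acid 2 of 6 female-enriched genes rose, both of which passed through the cholic acid libraries alone, and 9 of 13 male-enriched genes fell, of which Elovl3 was lost with the replicate block (adjusted p = 0.0991). Cyp2b9 was gained there (adjusted p = 0.0172), also through the cholic acid libraries alone. After hepatectomy 2 of 7 female-enriched genes fell and 0 rose, and of 13 male-enriched genes 2 rose and 6 fell.

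Cux2, a female-enriched transcription factor gene, stood at 4.094, 8.122 and 8.012 CPM in sham livers and at 0.854, 0.435 and 0.324 CPM after hepatectomy (-3.65 ± 0.408, edgeR adjusted p = 0.00047). Sham library 1 was the lowest sham library for Cux2 and for all 4 Fmo genes. In cholic acid livers Cux2 was at 43.11, 51.64 and 5.529 CPM, against at most 1.60 CPM on chow (5.68 ± 1.02, edgeR adjusted p = 0.02). It passed the filter there through the cholic acid libraries alone, and the call was lost with the replicate block (edgeR adjusted p = 0.067). Cholic acid library 2 was the highest and library 3 the lowest for Cux2, Fmo1 and Fmo2, but not for Fmo4 or Fmo5. In the double knockout Cux2 was not called, while Fmo1 and Fmo2 were.

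**Figure D4:**
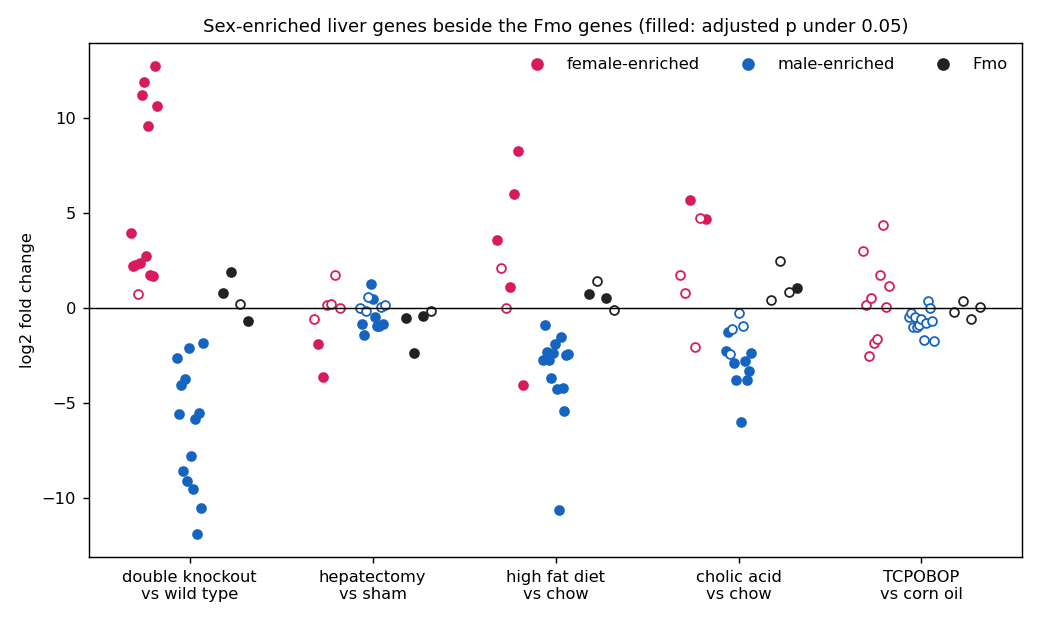
Fitted log2 fold change of female-enriched liver genes (pink), male-enriched liver genes (blue) and the Fmo genes (black) in the 5 comparisons, 1 point per gene that passed the filter on low counts; filled points passed an adjusted p of 0.05 in edgeR. In the knockout comparison all 14 blue points are filled and below 0, and in the TCPOBOP comparison no point is filled.

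Markers of other liver cells moved in some of the same comparisons. In the double knockout 5 of 6 stellate cell and fibroblast markers rose (summed level 179.2 to 294.8 CPM in wild type and 392.8 to 450 CPM in the knockout), as did 4 of 5 bile duct markers (26.5 to 36.2 and 54.5 to 128 CPM), and 3 of 6 hepatocyte markers fell. Of the endothelial markers 1 of 5 rose, of the macrophage markers 1 of 5 rose and 1 fell, and of the 2 leukocyte markers tested 1 rose. The bile duct marker Krt19 and the leukocyte marker S100a8, which rose, passed the filter on low counts through the knockout libraries alone. So did the bile duct marker Krt7, which was not called. These markers could enter only as higher, so their part of the counts is a description. The share of reads set aside as not uniquely aligned was 43.2% to 44.1% in wild-type and 25.5% to 26.9% in double knockout libraries. In the hepatocyte preparations all 6 stellate markers were higher on the high fat diet (9.51 to 15.7 CPM on chow and 39.8 to 42.1 CPM), as were all 5 endothelial markers (40.4 to 41.6 and 97.2 to 100.3 CPM) and 4 of 5 macrophage markers (25.3 to 25.5 and 44.1 to 48.0 CPM). Of the stellate markers 2 passed the filter through the high fat diet libraries alone. Krt19, Epcam, Cd79a and Nkg7 were at 0 in the chow hepatocytes, and no marker was at 0 throughout any other group.

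On cholic acid 1 of 6 stellate markers and 1 of 5 macrophage markers rose, with macrophage sums of 57.2 to 131.2 CPM on chow and 131.5 to 210.6 CPM on cholic acid, and 1 of 6 hepatocyte markers fell. With the replicate block the stellate marker Reln was lost (adjusted p = 0.0577) and the macrophage marker Marco gained (adjusted p = 0.0435). After hepatectomy 2 of 6 stellate markers, 1 of 5 bile duct markers and 1 of 5 macrophage markers rose and 3 of 6 hepatocyte markers fell, and the proliferation gene Mki67 went from 1.34 to 2.55 CPM to 66.4 to 110.8 CPM. The part of these cell markers and read shares in the Fmo changes was not tested.

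By the Pearson correlation of log2 CPM over the 26 libraries, among 10153 genes, the 5 genes most like each member included, for Fmo1, Limd2 (r = 0.823) and the sorting nexin gene Snx8 (0.805). For Fmo2 they included Cyp2c38 (0.816), a cytochrome P450 gene, and the sulfotransferase gene Sult1a1 (0.785). For Fmo4 they included Chmp4c (0.809) and for Fmo5 Mfsd7a (0.825) and the mitochondrial carrier gene Slc25a37 (0.817). Among the members Fmo1 and Fmo2 were the most alike (0.631), then Fmo1 and Fmo4 (0.559), while Fmo5 gave -0.278 with Fmo2 and -0.107 with Fmo1. These values describe libraries that share experiments, strain and depth, and they are not independent points.

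Protein-coding genes within 500 kb of the members, with all Fmo genes left out, were read from the same fits. Around the 3 members on chromosome 1, 1 of 5 tested neighbours was called in the double knockout, Prrx1 at 346 kb (2.51, edgeR adjusted p = 0.00149), which passed the filter through the knockout libraries alone, and 1 of 5 after hepatectomy, Gorab at 486 kb, which was higher (0.64, adjusted p = 0.0281) where these Fmo genes were lower. None was called in the other 3 experiments. Around Fmo5, 7 neighbours were tested. In the double knockout 3 rose (Bcl9, Prkab2 and Sec22b) and 2 fell (Acp6 and Pde4dip), where 40.4% of all genes were called. Of the same 7, after hepatectomy 2 rose and 1 fell, and in high fat diet hepatocytes 1 fell. On cholic acid, where Fmo5 rose, 0 were called. Prkab2, which lies 2.91 kb from Fmo5, was 0.75 higher in the double knockout (edgeR adjusted p = 0.0281), opposite to Fmo5.

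RefSeq promoters of GRCm38.p6 were at hand for Fmo2 (with 2 start sites), Fmo4 and Fmo5. The 250 bases before each RefSeq start were searched on both strands for 7 motifs. In the GENCODE annotation these windows lie partly inside the genes: annotated exons cover 227 bases of the first Fmo2 window, 0 of the second, 104 of the Fmo4 window and 215 of the Fmo5 window. AGGTCA, the half-site of many nuclear receptors, occurred 9 bases before the first RefSeq start of Fmo2 and, as TGACCT, 75 bases before that of Fmo4, both in annotated exon, and 14% of 32851 promoters hold it. The form read by Fxr, an inverted repeat of that half-site with 1 base between, was in none of the 4 windows and in 2 of all promoters. TATAAA and CCAAT matched in the Fmo5 window, 195 and 211 bases before the RefSeq start but in annotated exon, and CCAAT in the Fmo4 window, inside the gene but outside exons. Of all promoters 12.4% hold TATAAA and 33.8% hold CCAAT. TTCNNNGAA (7.02%), TGACNNNGC (10.2%) and CACGTG (6.02%) had no match. A match is a description of letters, and no library here measures binding.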

How the data were processed

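RNA of frozen whole livers or isolated hepatocytes was made into stranded mRNA libraries, per the labels' protocols. The deposited table gives the authors' raw read counts per gene for 26 libraries in 10 groups. Per the submitters' processing notes the tools included bcl2fastq 2.17.1.14, Trimmomatic, STAR 2.4.2a, Picard 1.119 and HTSeq, with the build GRCm38/mm10. The annotation and the use of strand in counting are not given in the sources used here. The table's 5 summary lines stayed out of all totals. Symbols were matched by gene ID for 47224 of 47643 rows.

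Each experiment was fitted alone with edgeR 4.0.16 (limma 3.58.1, R 4.3.3): filterByExpr, TMM scaling, the quasi-likelihood F test and Benjamini-Hochberg adjustment over all genes tested, with a call at an adjusted p under 0.05. The SE of a log2 change is its size divided by the square root of F. Printed CPM were scaled by TMM over all 26 libraries, so ratios of printed values differ slightly from fitted changes. The scripts were tested on simulated data. Members and gene lists were chosen with earlier results of these data known. The genes named from each list are at most the 3 with the largest called change whose groups did not overlap, and Fmo genes are named whatever their values. Likeness used log2 CPM of genes with a mean of at least 1. Members were also set beside RefSeq promoters (3 of 4 matched) and GENCODE GRCm38 exons, and gene ID versions of the members matched that annotation.

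Same-numbered libraries deviated together in the cholic acid experiment, where the correlations of their deviations from the group means were 0.132, 0.153 and 0.103. The numbers come from the titles, and the labels do not say that they pair the libraries. Differently numbered libraries there gave -0.103 to -0.0506. In the hepatectomy experiment, however, hepatectomy library 3 and sham library 1 reached 0.108, so this check does not settle pairing. The values printed for that experiment come from the fit without the block, as for the others, and the blocked value stands beside those whose call it changes. Elsewhere the numbers were not taken to pair the libraries. Other settings tried were DESeq2's size factors, the DESeq2 1.42.0 test, keeping genes with a mean count of 10 or more, no filter, the replicate block and leaving out each library in turn.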

Additional observations from a re-analysis of the deposited data

Results flagged for a closer look

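The effects of different experiments on the same Fmo gene differed in 5 tests, each a contrast between 2 experiments with no library in common (edgeR, adjusted over all genes). Called were 1 of 4 members for knockout minus cholic acid, where 13.9% of all genes were called. For hepatectomy minus cholic acid it was 4 of 4 (13% of all genes), and for knockout minus high fat diet 0 of 4 (16.1%). Fmo5 responded differently to loss of Fxr and Shp than to cholic acid, with a log2 difference of -1.705 ± 0.262 between the effects, since it fell in the first and rose in the second. The knockout experiment used freely fed mice with wild-type controls and the cholic acid experiment fasted mice with floxed alleles, and these differences cannot be told apart from the treatments. The hepatectomy effect lay below the cholic acid effect by -0.9649 for Fmo1, -4.821 for Fmo2, -1.263 for Fmo4 and -1.182 for Fmo5. Leaving out 1 library ended this call in 8 of 12 fits for Fmo1, 10 of 12 for Fmo4 and 3 of 12 for Fmo5. In the separate fits Fmo1, Fmo2 and Fmo4 fell after hepatectomy and were not called on cholic acid (Fmo2 passed there with the replicate block, adjusted p = 0.0483), while Fmo5 rose on cholic acid and was not called after hepatectomy. The hepatectomy mice were C3H/HeN and the cholic acid mice C57BL/6J with floxed alleles, and feeding and surgery differed too, so these cannot be told apart from the treatments.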

How the results depend on the processing

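In the double knockout the 3 Fmo calls were kept under all 5 other settings and in all 6 fits that left out 1 library. The same held after hepatectomy for Fmo2. Numbers below are log2 changes unless they count genes, and the cause of a change was not tested. DESeq2 called 109 genes with TCPOBOP and 1445 on cholic acid, where no filter gave 955. Fmo2 in high fat diet hepatocytes passed with no filter (1.398, adjusted p = 0.0354). Fmo2 on cholic acid passed with DESeq2 (2.45, adjusted p = 0.0445), with no filter (2.471, 0.0081) and with the replicate block (2.168, 0.0483). The difference for Fmo5 between the knockout and high fat diet effects passed with DESeq2 (-0.5678, 0.047). Of 153 other values of Fmo changes under these settings, none crossed the threshold or changed sign.

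The replicate block also brought Fmo2 in high fat diet hepatocytes past the threshold (1.448, adjusted p = 0.00197) and ended the call for Fmo4 in the hepatectomy minus cholic acid contrast (-1.306, 0.0978). It changed no other Fmo call. Same-numbered libraries correlated at -0.171, -0.0385 and -0.0201 in the knockout experiment and at -0.0753, 0.0744 and -0.00216 after hepatectomy. With only 2 numbers, the high fat diet (0.104) and TCPOBOP (0.101) experiments cannot show pairing.

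With 1 library left out, genes called ranged from 0 to 1233 with TCPOBOP (1233 without the library labelled corn oil 1, 413 without corn oil 2), 2554 to 4217 after hepatectomy (over 1.5 times fewer without sham 2 or 3), 1141 to 2644 on the high fat diet (over 1.5 times fewer without either high fat diet library) and 189 to 1345 on cholic acid (highest without chow 3, over 1.5 times fewer without any of the others). They ranged from 1089 to 2495 for hepatectomy minus cholic acid (over 1.5 times fewer without sham 2 or 3) and 1269 to 2768 for knockout minus high fat diet (likewise without either chow library or high fat diet 2). With TCPOBOP Fmo2 ranged from -0.0009682 to 0.8422 and Fmo5 from -0.424 to 0.8526, reversed without corn oil 2 and TCPOBOP 1 (-0.05642). After hepatectomy Fmo1 ranged from -0.6494 to -0.4438 and Fmo4 from -0.5057 to -0.3291. On the high fat diet Fmo1 ranged from 0.5665 to 0.9376, Fmo2 from 0.9683 to 2.032, Fmo4 from 0.4204 to 0.6083 and Fmo5 from -0.386 to 0.1111. On cholic acid Fmo4 ranged from 0.6395 to 1.309 and Fmo5 from 0.8295 to 1.15. For knockout minus cholic acid Fmo2 ranged from -1.051 to 0.4697 and Fmo4 from -1.105 to -0.4283. For hepatectomy minus cholic acid Fmo1 ranged from -1.142 to -0.7089, Fmo4 from -1.71 to -1.038 and Fmo5 from -1.381 to -0.9858. For knockout minus high fat diet Fmo1 ranged from -0.1241 to 0.2452 (-0.09848 without high fat diet 1), Fmo2 from -0.1511 to 0.9103 and Fmo5 from -0.8472 to -0.2959. Where this leaves a group with 1 library, that library is assumed to vary like the others. The lowest count of a member in any library was 68.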
